A study of Homo sapiens with 4 samples.

Results

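Of 19972 gene symbols in the deposited tables, 9 genes of the tight junction are described here: the claudins CLDN1, CLDN2, CLDN3, CLDN4, CLDN7 and CLDN12, occludin (OCLN), ZO-1 (TJP1) and JAM-A (F11R). They were chosen by symbol, and all 9 were found. RNA was sequenced from HCT116, a human colon cancer cell line of epithelial origin. The cells received a non-targeting control siRNA (si-NC) or siRNA against the long noncoding RNA LINC00152 (si-152), both at 100 nM for 36 h. Each group had 2 biological replicates. Every library comes from this single line, and LINC00152 itself was not analysed here, so the knockdown was not checked.

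Tight junctions seal the space between neighbouring epithelial cells near their apical surface. Claudins are the membrane proteins that form the strands of the seal and set which ions may pass: CLDN2 forms cation pores, whereas CLDN1, CLDN3, CLDN4 and CLDN7 are mostly barrier-forming. Occludin and JAM-A are further membrane proteins of the junction, and ZO-1 is the cytoplasmic scaffold that ties them to actin. In colon epithelium CLDN3, CLDN4 and CLDN7 are among the usual claudins, and repressors such as SNAI1 and ZEB1 are known to bind E-boxes in claudin and occludin promoters.

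The values were read as FPKM, fragments scaled by transcript length and library size. This unit is inferred from the values, and comparisons of levels between genes rest on it. The values summed to 463016 and 534311 in si-NC and to 424754 and 507094 in si-152, with the larger sum in replicate 2 of both groups. Some genes differed widely within a group. AKAP12 was at 210.6 and 0 FPKM (si-NC) against 215 and 154.6 FPKM (si-152). AATF was at 1.67 and 1.87 FPKM (si-NC) against 0.747 and 17.0 FPKM (si-152). The cause was not tested, so a level of a single gene is read with caution. Of the epithelial markers, EPCAM lay between 190.5 and 239.5 FPKM and KRT19 between 877.1 and 1378 FPKM. VIL1, a marker of the intestinal brush border, was at 0 in 3 libraries. Of 15 markers of other cell types, the leukocyte marker PTPRC and the fibroblast markers DCN and COL1A2 were listed at 0 in every library. COL1A1, of the fibroblast list, lay between 7.02 and 7.98 FPKM with overlapping groups. CD68, of the leukocyte list, was at 2.73 and 2.97 FPKM (si-NC) against 3.21 and 3.47 FPKM (si-152). The remaining 10 stayed under 0.3 FPKM in every library. These are bulk samples, in which fewer cells with a transcript and less of it per cell cannot be told apart.

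The genes lie apart in the genome, except for a neighbouring pair. By GENCODE v29 (GRCh38), CLDN3 (ENSG00000165215.6) is a single exon on chromosome 7, minus strand, from 73768997 to 73770270. CLDN4 (ENSG00000189143.9) follows 29.3 kb further on the plus strand, from 73799542 to 73832693. CLDN12 (ENSG00000157224.15) is also on chromosome 7, from 90383721 to 90513402. CLDN7 (ENSG00000181885.18) lies on chromosome 17 from 7259903 to 7263983, CLDN1 (ENSG00000163347.5) on chromosome 3 from 190305701 to 190322475, and CLDN2 (ENSG00000165376.10) on chromosome X from 106900164 to 106930861. OCLN (ENSG00000197822.10) lies on chromosome 5 from 69492292 to 69558104, TJP1 (ENSG00000104067.16) on chromosome 15 from 29699367 to 29968865, and F11R (ENSG00000158769.17) on chromosome 1 from 160995211 to 161021348. The coding sequences of CLDN3 and CLDN4 were identical at 79.4% of aligned bases, those of CLDN4 and CLDN7 at 65.5%, and those of CLDN3 and CLDN7 at 64.7%.

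Promoter sequence (RefSeq, GRCh38.p14, from 250 bases before to 50 bases after the start of a gene) was found for 8 of the 9 genes, and the first window listed for each gene was searched. The start is that of a RefSeq transcript, which for CLDN4 and CLDN12 lies far inside the GENCODE span given above. The word CAGGTG or its reverse complement CACCTG, the E-box that SNAI1 and ZEB1 can bind, was in 3 of these 8 windows, and in 20.6% of all 35116 promoter windows. Over all 14 windows listed for the 8 genes, which include further starts of some genes, 5 held it. The first windows of CLDN1 and CLDN2, the lowest of the genes, held none, and neither did those of CLDN4, CLDN7 and CLDN12. The 3 matches of the first windows are all shown. These matches fall in 1 claudin that was well expressed and in both genes that stood near 1 FPKM. They begin 36 bases after the start base in CLDN3, 33 bases before it in OCLN and 88 bases before it in TJP1. The windows are chr7:73770221-73770246 (minus strand), chr5:69492502-69492531 (plus strand) and chr15:29969120-29969149 (minus strand). Capitals mark the E-box.
CLDN3: caaagccacaggCAGGTGcaggcgca
OCLN: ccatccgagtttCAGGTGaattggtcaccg
TJP1: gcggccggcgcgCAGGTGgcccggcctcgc
The word GGGCGG (reverse complement CCGCCC), a GC box, was in 5 of the 8 promoters and in 45.0% of all. It occurred 6 times in CLDN3 and once in CLDN4, at chr7:73830937-73830966 on the plus strand (capitals mark the GC box).
CLDN4: ctccctctgcccCCGCCCctctgccagagc
The core TEAD word GGAATG (reverse complement CATTCC) was in 0 of the 8 and in 14.0% of all promoters. These matches describe the letters of the windows only.

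The study proposes that LINC00152 sponges miR-185-3p and miR-632. For miR-185-3p the mature sequence is shown with its seed (bases 2 to 8) in capitals, because the seed defines the sites searched for.
miR-185-3p: aGGGGCUGgcuuuccucugguc
Its site, CAGCCCC, was in the annotated 3′-UTR of 2 of the 9 genes, CLDN2 and TJP1, and in that of 21.8% of the 10757 tested genes with an annotated 3′-UTR. The CLDN2 site is at chrX:106930010-106930036 on the plus strand and the TJP1 site at chr15:29699429-29699455 on the minus strand (GRCh38, site in capitals).
CLDN2: gccagtgagaggCAGCCCCctagaaac
TJP1: caacccttcttcCAGCCCCtggcagga
Neither of these genes reached 1 FPKM in any library, and neither was among the tested genes over which that share was taken. The longest 3′-UTR of each gene was searched, from 390 bases for CLDN3 to 4433 bases for OCLN. The share was not matched for length. The site was in none of the 3′-UTRs of CLDN3, CLDN4, CLDN7, CLDN12 and F11R, the members above 10 FPKM.

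CLDN4 and CLDN7 made up most of the claudin signal of HCT116. CLDN4 was at 215.6 and 237.4 FPKM (si-NC) against 166.6 and 213.7 FPKM (si-152), and its mean ranked 288 among the 19972 symbols. CLDN7 was at 158.3 and 182.4 FPKM (si-NC) against 154.5 and 173.1 FPKM (si-152), with rank 376. CLDN4 was above CLDN7 in each library, by a ratio of 1.36 and 1.30 in si-NC and of 1.08 and 1.23 in si-152. Together they held between 85.8% and 87.0% of the summed FPKM of the 23 claudin genes listed.

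**Figure D1:**
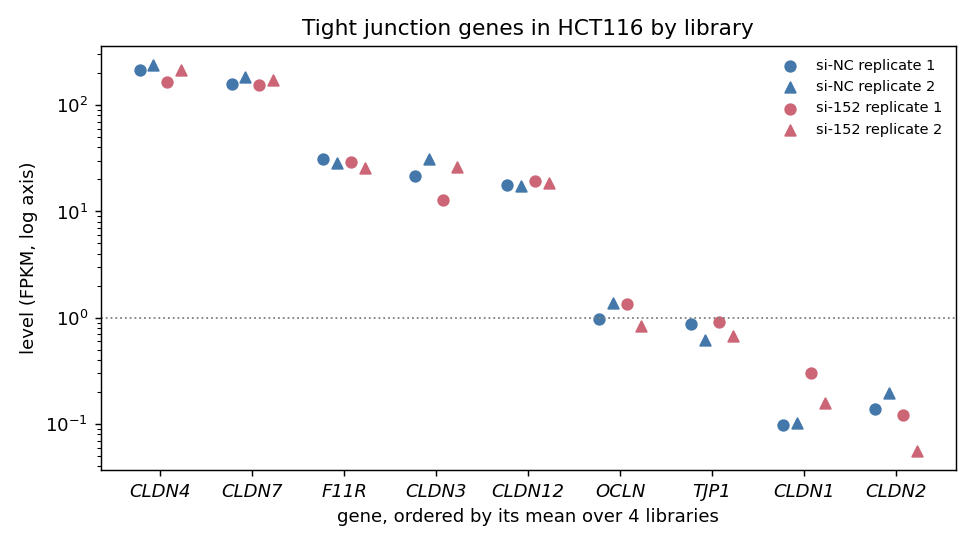
Level of the 9 genes in FPKM (log axis) in each of the 4 libraries, si-NC in blue and si-152 in red, circles for replicate 1 and triangles for replicate 2; the dotted line marks 1 FPKM. CLDN4 and CLDN7 lie between 154.5 and 237.4 FPKM, F11R, CLDN3 and CLDN12 between 12.7 and 31.1 FPKM, and the other 4 genes near or under 1 FPKM.

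An intermediate group followed. F11R, whose protein JAM-A is an immunoglobulin-like adhesion molecule, was at 31.0 and 28.5 FPKM (si-NC) against 29.1 and 25.8 FPKM (si-152). CLDN3 was at 21.6 and 31.1 FPKM (si-NC) against 12.7 and 26.3 FPKM (si-152). CLDN12, a claudin that lacks the usual C-terminal PDZ-binding motif, was at 17.9 and 17.2 FPKM (si-NC) against 19.5 and 18.6 FPKM (si-152). The ranges of F11R and CLDN3 overlapped, as did those of CLDN3 and CLDN12, whereas every value of F11R lay above every value of CLDN12. CLDN3 varied most between libraries, with both replicate 2 libraries above the replicate 1 library of their group.

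The other 4 genes were low. OCLN was at 0.982 and 1.37 FPKM (si-NC) against 1.35 and 0.839 FPKM (si-152), and TJP1 at 0.866 and 0.616 FPKM (si-NC) against 0.915 and 0.676 FPKM (si-152). Their ranges overlapped. CLDN1 was at 0.0982 and 0.101 FPKM (si-NC) against 0.305 and 0.158 FPKM (si-152). CLDN2 was at 0.138 and 0.196 FPKM (si-NC) against 0.122 and 0.0559 FPKM (si-152). For CLDN1 both si-152 libraries were above both si-NC libraries and for CLDN2 both were below, but all 8 values were under 0.4 FPKM and neither gene was tested. The scaffold ZO-3 (TJP3), named after its values were seen, was higher than ZO-1 (TJP1) in each of the 4 libraries, by between 17.2 and 31.2 times.

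Except for CLDN1 and TJP1, part of each transcript cannot be told apart from other annotated genes by short reads. How the deposited values treat such reads is not given in the sources used here. Of the 50-base words in the longest coding transcript, 39.1% were also in other genes for F11R, chiefly in AL591806.3, which overlaps it on the same strand. The share was 11.7% for CLDN7, 9.48% for CLDN2, 9.38% for OCLN (chiefly OCLNP1), 4.47% for CLDN12, 1.80% for CLDN3, 0.705% for CLDN4, and 0% for CLDN1 and TJP1. The low value of TJP1 therefore did not coincide with shared words.

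Of the other 17 claudin genes listed, only CLDN15 and CLDN23 passed 1 FPKM, and 9 were at 0 in every library. CLDN15, a cation-pore claudin of the intestine, was at 12.8 and 11.7 FPKM (si-NC) against 11.5 and 13.8 FPKM (si-152). In all, 6 claudins were at 1 FPKM or more in every library of both groups.

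**Figure D2:**
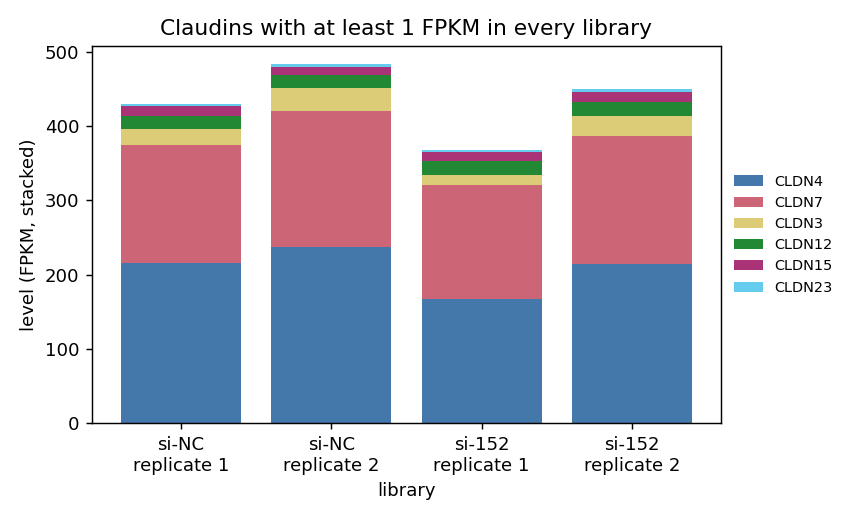
Stacked level in FPKM of the 6 claudins that were at 1 FPKM or more in every library, 1 bar for each library. CLDN4 and CLDN7 fill at least 85.8% of the claudin total of each library, 430.7 and 484.5 FPKM for si-NC, 369.0 and 450.9 FPKM for si-152.

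To ask whether LINC00152 suppression moved these genes, si-152 was compared with si-NC by limma's moderated test on log2(FPKM + 1), a scale that understates changes of low values. The test ran over 11221 genes, those at 1 FPKM or more in 2 libraries or more. Of the 9 genes, 6 entered it (CLDN3, CLDN4, CLDN7, CLDN12, OCLN and F11R). None of the 6 had an unadjusted p under 0.05, against 4.38% of all genes tested, and the adjusted p was 0.9996 for each by limma. With no filter on low values, 0 of 9 passed. Over all genes, 67 were higher and 119 lower at an unadjusted p under 0.05 and a fold above 1.5 (1.66% of those tested), and 101 higher and 65 lower when the libraries were scaled to equal sums.

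CLDN3 showed the largest difference, -0.48 on the log2 scale (standard error 0.30, 95% interval -1.15 to 0.20, unadjusted p = 0.147 by limma). It was lower in both pairs of same-numbered libraries, which share no stated culture or batch, at 0.589 of the si-NC level in pair 1 and 0.846 in pair 2, but the groups overlapped. The size of the difference depended on which library was left out. Without si-152 replicate 1, the lowest of the 4 libraries, it was 0.02, and without si-152 replicate 2 it was -0.97. Without si-NC replicate 1 it was -0.73, and without si-NC replicate 2 it was -0.22. In these fits the lone library is assumed to vary like the other group. They ignore the replicate numbers, and each sets a lone library of 1 number against both libraries of the other group. CLDN3 was higher in replicate 2 of both groups, so these values also hold the difference between replicate numbers. Across the 4 libraries, CLDN3 and CLDN7 stood in the same order as the summed FPKM of the libraries, lowest in si-152 replicate 1 and highest in si-NC replicate 2.

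CLDN4 was lower in both si-152 libraries than in both si-NC libraries, an arrangement that 13.9% of all tested genes shared. Its log2 difference was -0.26 (standard error 0.21, 95% interval -0.73 to 0.20, unadjusted p = 0.238 by limma), with 0.773 of the si-NC level in pair 1 and 0.900 in pair 2. Without si-152 replicate 1 the difference was -0.08, and without si-152 replicate 2 it was -0.44. As a share of the summed FPKM of its library, CLDN4 was at 0.0466% and 0.0444% (si-NC) against 0.0392% and 0.0421% (si-152), so its groups did not overlap on that scale either. The 6 tested epithelial markers were each lower in si-152 by their group difference, with a median of -0.25, and 0 of 6 had an unadjusted p under 0.05. Their summed level was 3077 and 3574 FPKM (si-NC) against 2421 and 3007 FPKM (si-152). The part of this in the CLDN4 values was not tested.

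CLDN7, OCLN and F11R overlapped between the groups. For CLDN7 the log2 difference was -0.05 (95% interval -0.48 to 0.37), with ratios of 0.976 and 0.949 in the pairs, and its sign turned when the libraries were scaled to equal sums (0.04). F11R had a log2 difference of -0.12 (95% interval -0.49 to 0.26) and was lower in both pairs, at ratios of 0.937 and 0.905. OCLN had one of -0.06 (95% interval -0.55 to 0.43), and its pairs went opposite ways, 1.37 and 0.614. CLDN12 alone of the 6 was higher, by 0.12 (standard error 0.16, 95% interval -0.25 to 0.48, unadjusted p = 0.499 by limma). Its ratios of 1.09 and 1.08 were nearly equal in the pairs, and both si-152 libraries were above both si-NC libraries, as in 16.5% of all tested genes. The intervals of CLDN4, CLDN7, OCLN and F11R reach the CLDN3 estimate of -0.48, so differences of that size in these genes could not be told from the spread.

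**Figure D3:**
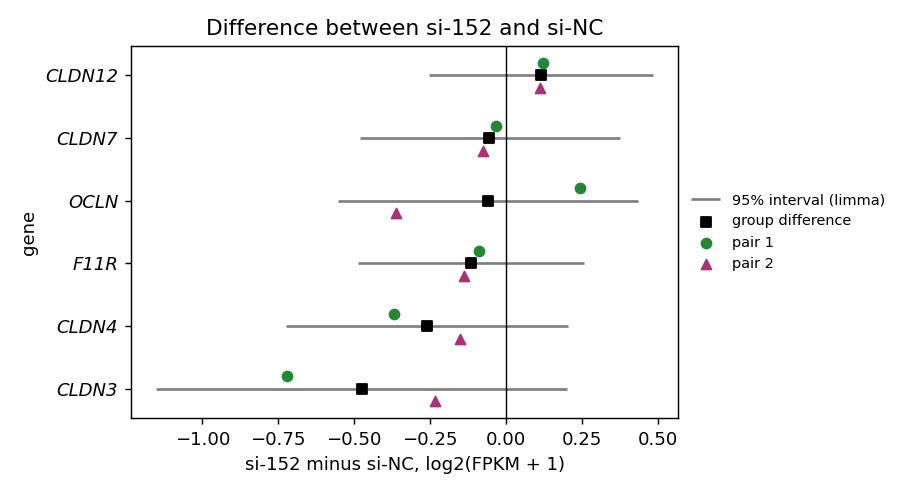
Difference between si-152 and si-NC on the log2(FPKM + 1) scale for the 6 tested genes, with the group difference (square), its 95% interval by limma (line) and the values of pair 1 (circle) and pair 2 (triangle). Every interval includes 0; the group difference is below 0 for 5 genes and above 0 for CLDN12.

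Over the 6 tested genes, 4 were lower in both pairs, 1 was higher in both and 1 went opposite ways. Of all tested genes, 27.3% were lower and 35.6% higher in both pairs. By the group difference 5 of the 6 were lower, as were 45.8% of all tested genes. The median log2 difference was -0.09, against 0.02 over all tested genes. It was -0.06 in pair 1, where the median of all genes was -0.03, and -0.15 in pair 2, where it was 0.07. With the libraries scaled to equal sums, the median of the 6 was -0.01 and that of all genes 0.11.

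The genes whose values over the 4 libraries were closest to those of CLDN3, by Euclidean distance of log2(FPKM + 1) deviations, were SCAMP3, FAM173A and RPS18, at distances of 0.026, 0.033 and 0.073. FAM173A was at 17.4 and 25.8 FPKM (si-NC) against 10.5 and 21.3 FPKM (si-152).

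The wider junction was read from 7 further lists with 89 genes, of which 60 were tested. Of these, 4 (6.67%) had an unadjusted p under 0.05, 3 lower and 1 higher in si-152, against 4.38% of all tested genes. The lists were chosen with earlier results of these data known, so this share is a description only. Of the 4, 2 are the paralogs MYL12A and MYL12B, whose independence was not tested. The median log2 difference of the 60 was 0.06.

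Among 6 tested membrane proteins beside the claudins, 0 passed. LSR, which marks tricellular contacts, was at 119.6 and 123.1 FPKM (si-NC) against 116.8 and 152.7 FPKM (si-152). CRB3, a Crumbs polarity protein, was at 32.6 and 39.4 FPKM (si-NC) against 29.6 and 36.9 FPKM (si-152). Among 9 plaque scaffolds and partners, 0 passed. YBX3, the ZO-1-binding Y-box factor ZONAB, was at 107.8 and 106.6 FPKM (si-NC) against 114.2 and 117.3 FPKM (si-152), and SYMPK (symplekin) lay between 22.4 and 25.4 FPKM. For the adherens junction core, which lies just below the tight junction, 0 of 10 passed and the median was 0.03. Its leading members CTNNA1 (alpha-catenin) and JUP (plakoglobin) had log2 differences of 0.01 and 0.06.

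The contractile machinery that pulls on the junction held the 2 lowest p-values of these lists. MYL12B, a regulatory light chain of non-muscle myosin, was at 300.2 and 375.3 FPKM (si-NC) against 136.4 and 177.9 FPKM (si-152). MYL12A, its paralog, was at 251.5 and 298.4 FPKM (si-NC) against 120.2 and 158.2 FPKM (si-152). Every si-152 value of each gene lay below every si-NC value. MYL12B was lower by a log2 difference of -1.10 (standard error 0.22, unadjusted p = 0.000666, adjusted p = 0.415 by limma) and MYL12A by one of -0.98 (standard error 0.21, unadjusted p = 0.00111, adjusted p = 0.468 by limma). The pair values were -1.13 and -1.07 for MYL12B and -1.06 and -0.91 for MYL12A. The genes lie 5.2 kb apart on chromosome 18, and their coding sequences were identical at 95.7% of aligned bases. Of the 50-base words in the longest coding transcripts, 1180 for MYL12A and 1200 for MYL12B, 76 were common to both. Reads from that part may be split between the 2 genes, and how far their values are independent was not tested. The related light chain MYL9, named after its values were seen, was at 14.6 and 15.8 FPKM (si-NC) against 9.61 and 14.7 FPKM (si-152). Its groups overlapped, and its log2 difference was -0.33 (unadjusted p = 0.159 by limma). RHOA, the GTPase upstream of this machinery, was at 335.6 and 288.4 FPKM (si-NC) against 340.9 and 359.8 FPKM (si-152). The list as a whole had a median of -0.07, with 2 of 11 genes past the unadjusted threshold. By the group difference, 5 of its tested genes were higher in si-152 and 6 were lower.

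Of 11 polarity genes, 1 passed the unadjusted threshold. SCRIB, the Scribble scaffold, was at 2.98 and 2.16 FPKM (si-NC) against 3.33 and 9.07 FPKM (si-152), so the difference of 0.90 (unadjusted p = 0.0278, adjusted p = 0.9996 by limma) rested on si-152 replicate 2. Without that library it was 0.29 (unadjusted p = 0.376 by limma). LLGL2 and PRKCZ, the most abundant of the list, had log2 differences of 0.10 and -0.05.

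Of 11 tested transcription factors known to act on junction genes, KLF4 had an unadjusted p under 0.05. It was at 37.9 and 29.8 FPKM (si-NC) against 22.8 and 24.0 FPKM (si-152), a log2 difference of -0.51 (standard error 0.18, unadjusted p = 0.0183, adjusted p = 0.9996 by limma). Without si-NC replicate 1 it was -0.34 (unadjusted p = 0.183 by limma), and without si-152 replicate 1 it was -0.47 (unadjusted p = 0.0509 by limma). KLF5, the next most abundant, lay between 19.5 and 22.5 FPKM with overlapping groups. The repressors SNAI1 and ZEB1 were named after their values were seen, because their E-box is shown above. SNAI1 was at 6.15 and 5.99 FPKM (si-NC) against 5.84 and 5.90 FPKM (si-152). ZEB1 was at 1.37 and 0.70 FPKM (si-NC) against 1.47 and 1.15 FPKM (si-152), with overlapping groups.

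**Figure D4:**
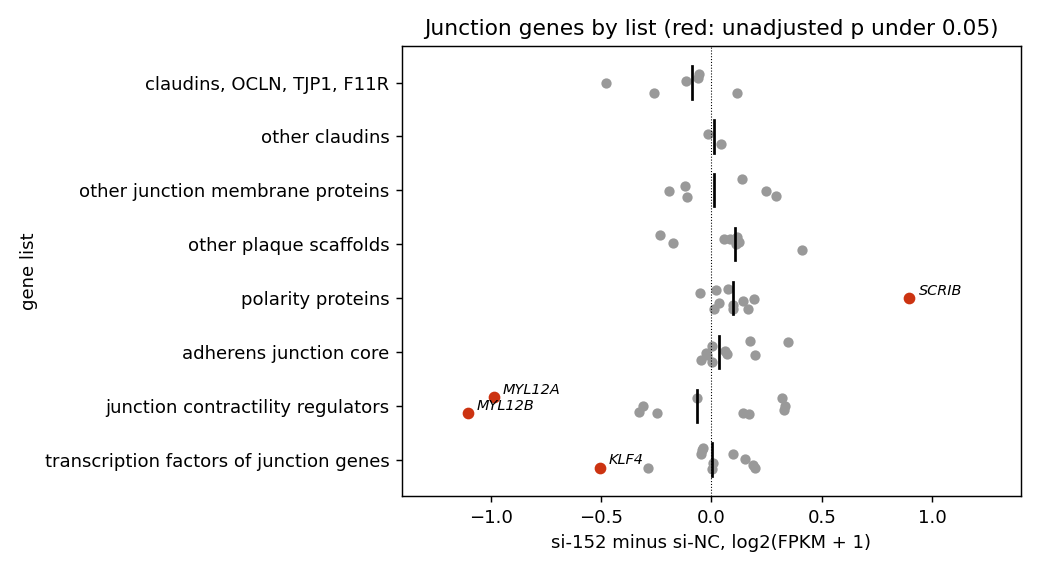
Difference between si-152 and si-NC on the log2(FPKM + 1) scale for every tested gene (point) of the 6 described genes and of 7 further junction lists, with the median of each list as a black bar and genes with an unadjusted p under 0.05 by limma in red. MYL12A and MYL12B lie near -1, KLF4 at -0.51 and SCRIB at 0.90, and the other genes lie between -0.48 and 0.41.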

How the data were processed

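HCT116 libraries (2 si-NC, 2 si-152) were grouped by their titles. The authors deposited 1 table per library with a value per gene symbol. The unit is not named with these values. They carry decimals and their sums differ, which does not tell FPKM from other scaled values. They were read as FPKM made by the authors, and this reading was not checked. The submitters' processing notes name Trimmomatic, TopHat, HISAT2, HTSeq, DESeq and GRCh38, without roles. The number of reads is unknown, since low values showed no common step, so no counting error can be given. Of 19974 rows, 2 repeated a symbol and were dropped, and 28 symbols read as dates.

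No scaling was applied. log2(FPKM + 1) was tested with limma 3.58.1 in R 4.3.3 (mean-variance trend, no block, Benjamini-Hochberg adjustment over the 11221 genes at 1 FPKM or more in 2 libraries or more), because the values were not counts. The test was checked on simulated data. Words and sites were searched in RefSeq and GENCODE v29 sequences with Python 3.11.15. Named genes are the 9 members, listed genes with an unadjusted p under 0.05, the 2 most abundant of each list and the 3 genes nearest to CLDN3. The members and lists were chosen with earlier results of these data known. miR-632 sites were not analysed here.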

Additional observations from a re-analysis of the deposited data

How the results depend on the processing

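The count of called genes (unadjusted p under 0.05, fold above 1.5) was 186, and stayed between 153 and 260 under the settings that kept all 4 libraries. With a library left out it ranged from 234 to 531. The count of the described genes with an unadjusted p under 0.05 was 0, and between 0 and 1 with a library left out, the 1 being CLDN3. With the replicate number as a block it was 1, again CLDN3 (-0.48, unadjusted p = 0.00694 by limma). The replicate numbers share no stated culture or batch. The deviations of same-numbered libraries correlated at 0.52 across genes, and over all genes the block gave 1893 with an unadjusted p under 0.05 in place of 492. The median of the described genes, -0.09, moved to -0.007 when libraries were scaled to equal sums, an alternative added after the data were seen, and ranged from -0.17 to 0.02 with a library left out, over 5 or 6 genes. CLDN7 turned to 0.047 with quantile normalization and to 0.044 with equal sums, and ranged from -0.157 to 0.047 with a library left out. OCLN turned to 0.004 with equal sums. It was -0.19 without si-NC replicate 1 and 0.12 without si-152 replicate 2, and was below the filter and not tested without either of the other libraries. CLDN3 ranged from -0.97 to 0.02. The cause of these turns was not tested. CLDN4 and F11R stayed below 0 and CLDN12 above 0 under every setting run, but their sizes moved. With a library left out, CLDN4 ranged from -0.44 (without si-152 replicate 2) to -0.08 (without si-152 replicate 1), F11R from -0.20 (without si-152 replicate 1) to -0.03 (without si-152 replicate 2) and CLDN12 from 0.08 to 0.15. With equal sums they were -0.16, -0.02 and 0.21. MYL12A and MYL12B kept an unadjusted p under 0.05 by limma in every setting run. SCRIB lost it by limma without a filter on low values (unadjusted p = 0.11) and with quantile normalization (unadjusted p = 0.0526), and KLF4 with equal sums (unadjusted p = 0.0857). With 2 libraries per group, the 95% intervals of the 6 tested genes all included 0, and the number of reads behind each value is unknown.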
